A study of Rattus norvegicus with 10 samples.

Results

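The genes described here are 9 output genes of the circadian clock: Dbp, Tef and Hlf, which encode the PAR bZIP activators, Nfil3, which encodes a repressor of the same DNA sites, the enzymes Noct, Usp2 and Nampt, and the repressors Bhlhe40 and Bhlhe41. They were chosen by name, and a probe was assigned to a gene through the accession it carries. Of the 9 genes, 7 had a named probe among 13426 genes measured in all. Hlf and Bhlhe41 were not analysed here, since no probe carried an accession of theirs. All 7 genes had a main probe whose signal was well above background on all 10 arrays.

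Livers of 10 male Wistar rats were compared on Agilent one-colour arrays, 1 array for each rat. The control group held 3 rats that were not irradiated, and the TBI group held 3 rats taken 24 h after total-body irradiation from a 60Co source. The MASM + TBI group held 4 rats given MASM, a derivative of the plant alkaloid matrine, into the stomach at 30 mg/kg a day for 3 days and then irradiated in the same way. The labels give the dose as 6.5 Gy, while the study's text names a slightly lower dose. No array held liver from a rat given MASM without irradiation, and neither the age of the rats nor the hour of day at which livers were taken is given in the sources used here. The array names under a heat map of the study place the control and TBI arrays the other way round from the labels. The labels were followed here, and the fold changes in the study's own tables divide the same arrays the way the labels do. With those names every difference between TBI and control would take the opposite sign and the comparisons of MASM + TBI with control and with TBI would change places. Lymphocytes are known to be lost after irradiation, and the values of a T cell and a B cell marker are given for the arrays as labelled. Both were picked since they passed the test between these labelled groups, so they give no independent check of the labels. Cd79b was well above background on only 3 of 10 arrays. The T cell marker Cd3g had a mean log2 signal of 7.16 in control, 3.55 in TBI and 3.54 in MASM + TBI rats, and the B cell marker Cd79b one of 5.19, 2.29 and 2.18. Of the 7 T cell markers 4 were lower and 3 higher in TBI than in control, and of the 3 none passed the test.

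In liver the clock proteins BMAL1 and CLOCK switch on genes through a short DNA element, the E-box, and the PER, CRY and REV-ERB proteins (the last encoded by Nr1d1 and Nr1d2) feed back on them. DBP, TEF and HLF are made in daily waves and bind another element, the D-box, in genes of drug, steroid and amine metabolism, while NFIL3 occupies the same element as a repressor in the opposite part of the day. A level of such a gene therefore depends on the hour as well as on the treatment. Bhlhe40 and Bhlhe41 encode repressors that bind the E-box, and Noct, Usp2 and Nampt encode enzymes that cycle under the clock.

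The arrays of the groups did not lie evenly on the slides. The controls and MASM + TBI rat 3 lay on slide 1, the TBI rats on slide 2 and the remaining MASM + TBI rats on slide 3, and the scans followed the slides. TBI and its slide therefore cannot be told apart in any comparison with the TBI group. The share of spots well above background ran from 57.2% to 59.9% on control arrays, from 64.1% to 70.1% on TBI arrays and from 56.2% to 60.2% on MASM + TBI arrays. The 8 hepatocyte markers were well above background on every array, with a mean log2 signal of 16.3 to 16.44 in control rats, 16.3 to 16.68 in TBI rats and 16.5 to 16.61 in MASM + TBI rats, and none of them passed the test in any comparison. When the arrays were brought to a common 75th percentile instead of being quantile normalized, Ttr passed downward in TBI against control (-0.65, adjusted p = 0.0328) and Cyp2e1 upward in MASM + TBI against control (0.73, adjusted p = 0.0199). The signal of a gene in bulk liver does not tell fewer cells of a type from less RNA in each cell.

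The promoters of the 4 genes that passed the test between TBI and control, Dbp, Tef, Usp2 and Noct, are shown with that of Bhlhe40, which did not pass it, so that the elements of the clock can be read against the values that follow. Each run holds the 250 bases before the start of the gene in RefSeq, 5′ to 3′ on the plus strand of GRCr8, and capitals mark the E-box CACGTG. Dbp lies at chr1:105312006-105312255, Tef at chr7:115206577-115206826, Usp2 at chr8:53310620-53310869, Noct at chr2:137421824-137422073 and Bhlhe40 at chr4:143174200-143174449.
Dbp: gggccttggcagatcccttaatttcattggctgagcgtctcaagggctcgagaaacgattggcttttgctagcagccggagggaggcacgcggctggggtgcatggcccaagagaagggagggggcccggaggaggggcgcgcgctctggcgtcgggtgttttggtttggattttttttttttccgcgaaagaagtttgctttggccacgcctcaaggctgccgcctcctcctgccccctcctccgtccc
Tef: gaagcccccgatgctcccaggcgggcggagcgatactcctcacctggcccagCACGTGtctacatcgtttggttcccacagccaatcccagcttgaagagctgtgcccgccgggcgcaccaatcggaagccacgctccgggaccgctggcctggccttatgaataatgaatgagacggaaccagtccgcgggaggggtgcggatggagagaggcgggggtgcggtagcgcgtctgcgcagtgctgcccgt
Usp2: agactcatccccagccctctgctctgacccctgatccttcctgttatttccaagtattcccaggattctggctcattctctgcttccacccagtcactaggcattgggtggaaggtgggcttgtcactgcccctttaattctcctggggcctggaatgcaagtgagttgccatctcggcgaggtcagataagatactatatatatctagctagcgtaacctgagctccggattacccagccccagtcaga
Noct: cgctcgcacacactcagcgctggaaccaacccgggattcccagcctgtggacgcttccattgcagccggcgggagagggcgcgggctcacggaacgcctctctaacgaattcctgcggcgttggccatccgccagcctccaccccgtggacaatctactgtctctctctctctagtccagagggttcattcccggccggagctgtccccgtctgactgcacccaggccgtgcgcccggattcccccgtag
Bhlhe40: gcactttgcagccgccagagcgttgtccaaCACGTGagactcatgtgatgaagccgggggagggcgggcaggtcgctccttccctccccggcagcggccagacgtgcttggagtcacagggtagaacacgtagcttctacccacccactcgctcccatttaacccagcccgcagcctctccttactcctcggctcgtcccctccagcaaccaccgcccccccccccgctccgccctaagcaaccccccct

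Promoters were found for 7 of the 9 genes, and not for Hlf and Nampt. On either strand CACGTG was present in 3 of the 7, at 198 to 193 bases before the start of Tef, 220 to 215 bases before that of Bhlhe40 and 48 to 43 bases before that of Bhlhe41, against 5.59% of 33469 promoters of the same length. The related element CACGTT was in 0 of the 7 and in 4.07% of all promoters. The D-box was searched as TTATGTAA, held by 0.828% of all promoters, and as TTACGTAA, held by 0.108%, and neither was found in any of the 7. The cAMP response element TGACGTCA was in 1.59% of all promoters and in 0 of the 7. A stretch of 250 bases holds only a small part of the control regions of these genes, and the absence of these letters from it says nothing about the factors. The GC content was 61.2% for Dbp, 65.6% for Tef, 52% for Usp2, 65.6% for Noct and 66% for Bhlhe40, against a median of 51.2% over all promoters.

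After TBI the PAR bZIP genes Dbp and Tef and the protease gene Usp2 were down-regulated in the liver, and Noct was up-regulated. These were 4 of the 7 measured genes, where 5.63% of 40945 probes passed the same test (limma across all 3 groups, Benjamini-Hochberg adjusted p under 0.05), 2.44% upward and 3.19% downward. The median log2 difference between TBI and control was -0.98 over the 7 genes and -0.029 over all probes. In 6 of the 7 genes the ranges of TBI and control rats did not overlap, which was also so for 11.3% of all probes on the higher side and 19% on the lower side. A looser threshold, a fold change of 1.5 or more with an unadjusted p below 0.05, is the study's, which set it on a plain test of each probe and not on limma. With limma's p in its place 5 of the 7 genes passed, 1 upward and 4 downward with Nampt as the fourth, against 12.6% of all probes, 6.53% upward and 6.09% downward. With the plain test of the methods, run here without equal variances, 4 of the 7 passed (Dbp, Tef, Usp2 and Noct), against 7.08% of all probes.

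Dbp, the D-site binding protein and the PAR bZIP factor with the largest daily swing in liver, had nearly the same log2 signal in every control rat, 13.34, 13.34 and 13.35 in rats 1 to 3. It was 11.16, 11.89 and 11.25 in TBI rats 1 to 3, and 12.14, 12.02, 12.65 and 12.03 in MASM + TBI rats 1 to 4. Every TBI rat lay below every MASM + TBI rat, and every MASM + TBI rat below every control. The mean was 13.34 ± 0.0044 (SD, n = 3) in control, 11.43 ± 0.4 (SD, n = 3) in TBI and 12.21 ± 0.3 (SD, n = 4) in MASM + TBI. Dbp was 3.76-fold lower in TBI than in control, a log2 difference of -1.91 (SE 0.22, 95% interval -2.42 to -1.4, adjusted p = 0.00367 by limma), and 1.45% of all probes differed by more in either direction.

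Tef, the thyrotroph embryonic factor, which shares the D-box with DBP, changed less. Its log2 signal was 9.14, 9.22 and 8.98 in control rats 1 to 3, 8.25, 8.41 and 7.74 in TBI rats, and 8.61, 8.49, 8.85 and 8.60 in MASM + TBI rats 1 to 4. The groups fell in the same order as for Dbp, with no overlap between any of them. Tef was 1.97-fold lower in TBI than in control (log2 difference -0.98, SE 0.17, 95% interval -1.38 to -0.58, limma adjusted p = 0.019). The call depended on the control rats, with an adjusted p of 0.0559 without control rat 1 and 0.0613 without control rat 2. Of all probes, 217 or 0.53% showed this complete order of control above MASM + TBI above TBI, with Dbp and Tef among them, and 126 or 0.308% showed the reverse order with none of the 7 genes.

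Nfil3, the repressor at the D-box, was 8.82, 9.50 and 9.25 in control rats, 9.61, 9.94 and 10.26 in TBI rats and 9.23, 10.01, 9.85 and 8.25 in MASM + TBI rats 1 to 4. The TBI rats all lay above the controls, while the MASM + TBI rats spread from below every control to within the range of the TBI rats. The log2 difference between TBI and control was 0.75 (SE 0.43, 95% interval -0.25 to 1.74) and did not pass the test (limma adjusted p = 0.341). The interval takes in no change as well as a rise of the size by which Tef fell.

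**Figure D1:**
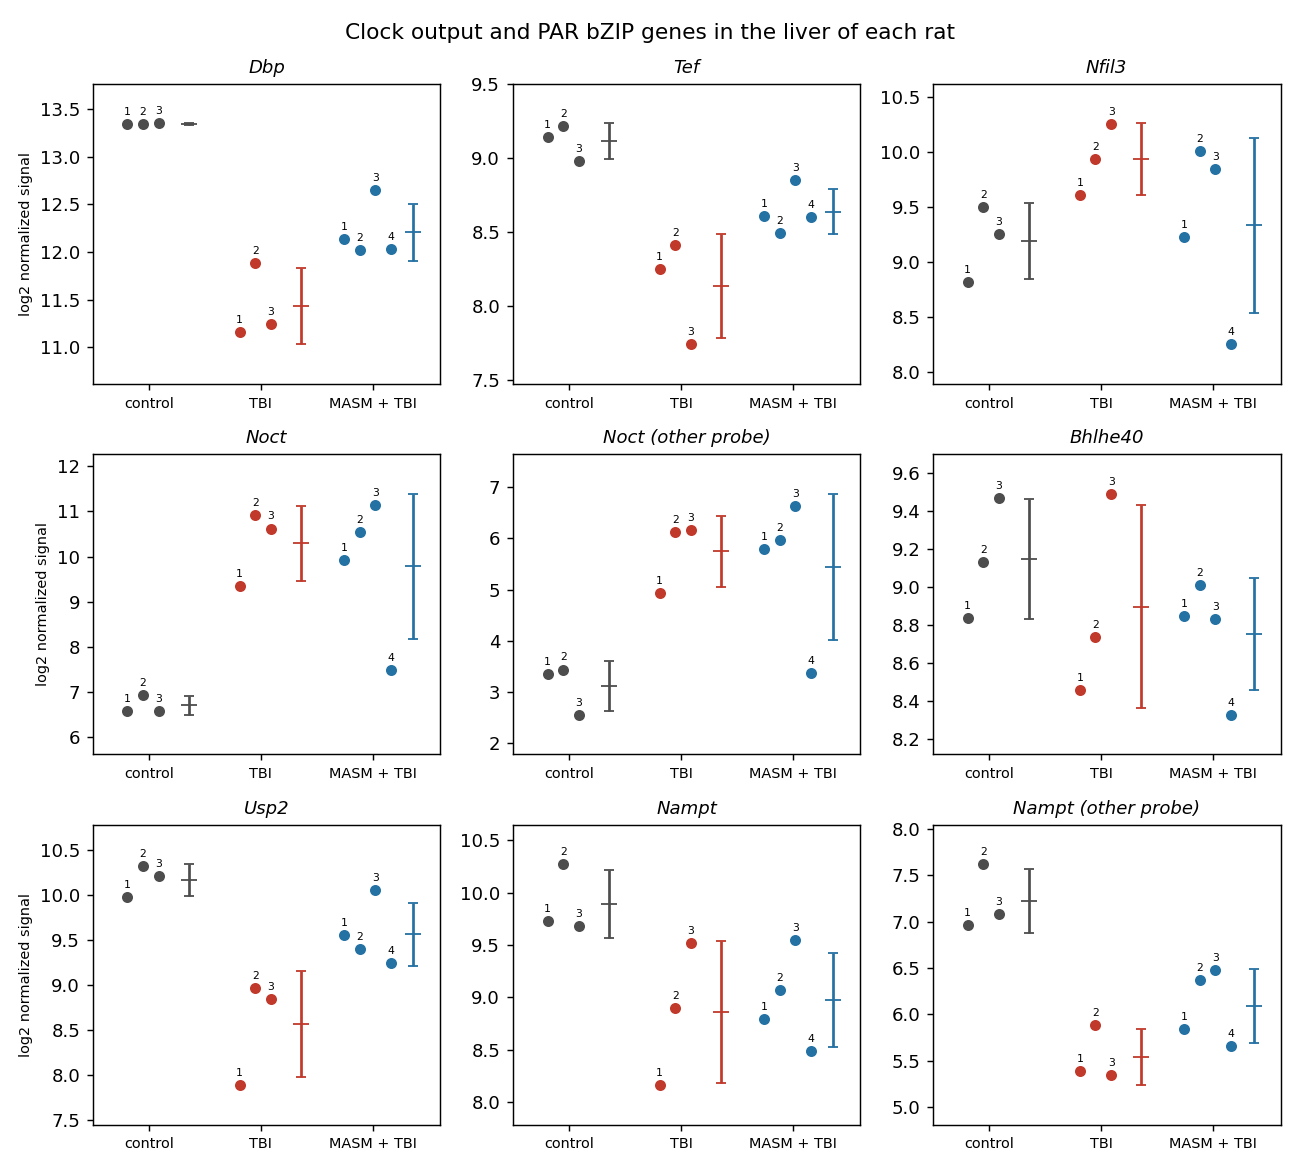
Log2 normalized signal (y axis) of each probe of the 7 measured genes in each rat, by group (x axis), with numbered points for rats and bars for the group mean ± SD. Dbp and Tef fall into 3 separate levels, with Dbp near 13.34 in all controls, and Noct in MASM + TBI rat 4 lies at 7.49 while the other irradiated rats lie between 9.35 and 11.15.

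Noct, which encodes nocturnin, an enzyme of the deadenylase family known for a strong daily cycle and for a part in lipid handling, showed the largest rise of the 7. Its log2 signal was 6.59, 6.94 and 6.59 in control rats, 9.35, 10.91 and 10.62 in TBI rats and 9.93, 10.55, 11.15 and 7.49 in MASM + TBI rats 1 to 4. All irradiated rats lay above all controls, and MASM + TBI rat 4 lay apart from the other irradiated rats and nearest the controls. Noct was 12-fold higher in TBI than in control (log2 difference 3.58, SE 0.86, 95% interval 1.63 to 5.54, limma adjusted p = 0.0492). This p lay close to the threshold and rose above it without any single control or TBI rat (0.0571 to 0.136), as well as without MASM + TBI rat 1 (0.0763) or 2 (0.0659), while it was 0.00848 without MASM + TBI rat 4.

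A second probe of Noct gave log2 signals of 3.35, 3.44 and 2.56 in control rats, 4.94, 6.13 and 6.16 in TBI rats and 5.80, 5.97, 6.63 and 3.38 in MASM + TBI rats 1 to 4. It was well above background on no control array, on all 3 TBI arrays and on 3 of 4 MASM + TBI arrays, the exception being rat 4. Against the lowest measurable signal of the control arrays it was at least 3.63-fold higher in TBI (adjusted p = 0.0896) and at least 2.95-fold higher in MASM + TBI (adjusted p = 0.139), both by limma. Both probes thus placed the same irradiated rat lowest, and only the brighter probe passed the test.

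Usp2, which encodes a ubiquitin-specific protease that acts on clock proteins among others, was 9.98, 10.32 and 10.21 in control rats, 7.89, 8.97 and 8.85 in TBI rats and 9.56, 9.40, 10.06 and 9.25 in MASM + TBI rats 1 to 4. The TBI rats lay below all others, and MASM + TBI rat 3 reached into the range of the controls. Usp2 was 3.02-fold lower in TBI than in control (log2 difference -1.6, SE 0.3, 95% interval -2.29 to -0.9, limma adjusted p = 0.0244). Leaving out control rat 1, 2 or 3 gave an adjusted p of 0.0519, 0.073 or 0.0793.

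Nampt encodes the enzyme that limits the salvage of nicotinamide to NAD, and its output is known to cycle with the clock. Its brighter probe gave 9.73, 10.27 and 9.68 in control rats, 8.16, 8.90 and 9.52 in TBI rats and 8.79, 9.07, 9.55 and 8.49 in MASM + TBI rats 1 to 4. All irradiated rats lay below all controls. The log2 difference between TBI and control was -1.04 (SE 0.38, 95% interval -1.9 to -0.17, unadjusted p = 0.0241, limma adjusted p = 0.147), which did not pass the test across all probes. The dimmer probe, at 6.97, 7.62 and 7.08 in control rats and 5.39, 5.89 and 5.34 in TBI rats, did pass it, with a difference of -1.69 (SE 0.28, limma adjusted p = 0.0135). Its MASM + TBI rats stood at 5.84, 6.37, 6.48 and 5.66. The 2 probes thus pointed the same way and differed in whether TBI passed the test.

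Bhlhe40, whose protein represses BMAL1 and CLOCK targets at the E-box, did not separate the groups. It was 8.84, 9.13 and 9.47 in control rats, 8.46, 8.74 and 9.49 in TBI rats and 8.85, 9.01, 8.83 and 8.33 in MASM + TBI rats 1 to 4. The log2 difference between TBI and control was -0.25 (SE 0.29, 95% interval -0.92 to 0.42, limma adjusted p = 0.64). Bhlhe40 and Tef both have an E-box in the promoters shown above, and Tef passed the test while Bhlhe40 did not.

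In the rats given MASM before TBI, only Dbp among the 7 genes passed the test against control, and it was down-regulated. That was 1 of 7 genes where 2.99% of all probes passed, 1.26% upward and 1.73% downward, and the median difference was -0.47 over the genes and 0.002 over all probes. Dbp was 2.19-fold lower than in control (log2 difference -1.13, SE 0.21, 95% interval -1.61 to -0.65, limma adjusted p = 0.0297). The call was lost without any 1 of the control rats (adjusted p 0.0726 to 0.104) and without MASM + TBI rat 1, 2 or 4 (0.0871, 0.0688 or 0.0786), while the difference stayed between -1.28 and -0.69 in all alternatives run. At the looser threshold with limma's p 3 genes passed, Noct upward and Dbp and Nampt downward, against 8.06% of all probes (3.52% upward and 4.55% downward). With the plain test of the methods 4 passed at that threshold, Usp2 downward as well, against 5.75% of all probes. In 4 of the 7 genes MASM + TBI and control did not overlap, as did 9.35% of all probes on the higher side and 8.9% on the lower side.

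Noct was 8.41-fold higher in MASM + TBI than in control (log2 difference 3.07, SE 0.8, 95% interval 1.24 to 4.9) with a limma adjusted p of 0.088. Without MASM + TBI rat 4 the difference was 3.84 with an adjusted p of 0.0109. The other differences from control were -0.47 for Tef (SE 0.16, adjusted p = 0.178), -0.92 for Nampt (SE 0.35, adjusted p = 0.228), -0.6 for Usp2 (SE 0.28, adjusted p = 0.338), -0.39 for Bhlhe40 (SE 0.27, adjusted p = 0.544) and 0.15 for Nfil3 (SE 0.41, adjusted p = 0.981), all by limma on the log2 scale. The dimmer probe of Nampt differed from control by -1.14 (SE 0.26, adjusted p = 0.0567).

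MASM + TBI rat 3 shared slide 1 with the controls, so that slide allows a comparison of 1 rat with 3 controls. On this slide the log2 difference from control was -0.69 for Dbp, -0.26 for Tef, -0.11 for Usp2, -0.35 for Nampt, -0.32 for Bhlhe40, 0.66 for Nfil3 and 4.44 for Noct. The 3 MASM + TBI rats of slide 3 differed from the controls by -1.28 for Dbp, -0.55 for Tef, -0.76 for Usp2, -1.11 for Nampt, -0.42 for Bhlhe40, -0.03 for Nfil3 and 2.61 for Noct. Rat 3 was thus nearer the controls than the mean of its group mates in Dbp, Tef, Usp2, Nampt and Bhlhe40 and farther from them in Noct and Nfil3. A model with the slide as a term rests on this 1 rat, so it gives no replicated test of the group. Whether the slide had a part in these values was not tested.

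Between the irradiated groups, Dbp, Tef and Usp2 had higher signals in every MASM + TBI rat than in any TBI rat, but no gene passed the test across all probes. The count was 0 of 7 by limma at an adjusted p under 0.05, where 1.63% of all probes passed (0.911% upward and 0.716% downward), and 3 of 7, all upward, at an unadjusted p under 0.05, where 17% of all probes passed (9.49% upward and 7.47% downward). The balance of the adjusted calls over all probes turned downward without TBI rat 1 (438 up and 782 down) or TBI rat 2 (170 up and 278 down). The log2 difference was 0.78 for Dbp (SE 0.21, 95% interval 0.3 to 1.26, unadjusted p = 0.00535, limma adjusted p = 0.123). For Usp2 it was 0.99 (SE 0.28, 95% interval 0.34 to 1.65, unadjusted p = 0.00754, limma adjusted p = 0.137). For Tef it was 0.51 (SE 0.16, 95% interval 0.13 to 0.88, unadjusted p = 0.0137, limma adjusted p = 0.171). At the looser threshold with limma's p Dbp and Usp2 passed, both upward, as did 7.98% of all probes (3.15% upward and 4.83% downward), and with the plain test of the methods 0 of the 7 passed, against 4.03% of all probes. Scaled to the 75th percentile of each array in place of quantile normalization, Dbp (0.85, adjusted p = 0.0401) and Usp2 (1.01, adjusted p = 0.0478) passed the limma test, together with 5479 probes in all instead of 666.

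The other genes overlapped between MASM + TBI and TBI. Their log2 differences were -0.6 for Nfil3 (95% interval -1.53 to 0.33), -0.51 for Noct (-2.34 to 1.32), -0.14 for Bhlhe40 (-0.76 to 0.48) and 0.11 for Nampt (-0.69 to 0.92), with limma adjusted p of 0.502, 0.791, 0.837 and 0.906. For Noct the interval takes in a fall as well as a rise. Non-overlap between these groups was found for 3 of the 7 genes, all higher in MASM + TBI, and for 12.7% of all probes on that side and 5.88% on the other. As a description of the 4 genes past the test between TBI and control, the MASM + TBI mean differed from control by 59.2% of the TBI difference for Dbp, 48% for Tef, 37.5% for Usp2 and 85.8% for Noct on the log2 scale. These shares rest on the same controls in both differences and were not tested.

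Within the MASM + TBI group the genes did not vary together in a single direction. Rat 3 had the highest signal of the 4 in 5 of the 7 genes (Dbp, Tef, Noct, Usp2 and Nampt), and rat 4 the lowest in 5 (Nfil3, Noct, Bhlhe40, Usp2 and Nampt). Rat 2 was lowest for Dbp and Tef and highest for Nfil3 and Bhlhe40. Replicate spread was smallest for Dbp in control and largest for Noct in MASM + TBI, with an SD of 1.61 on the log2 scale.

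**Figure D2:**
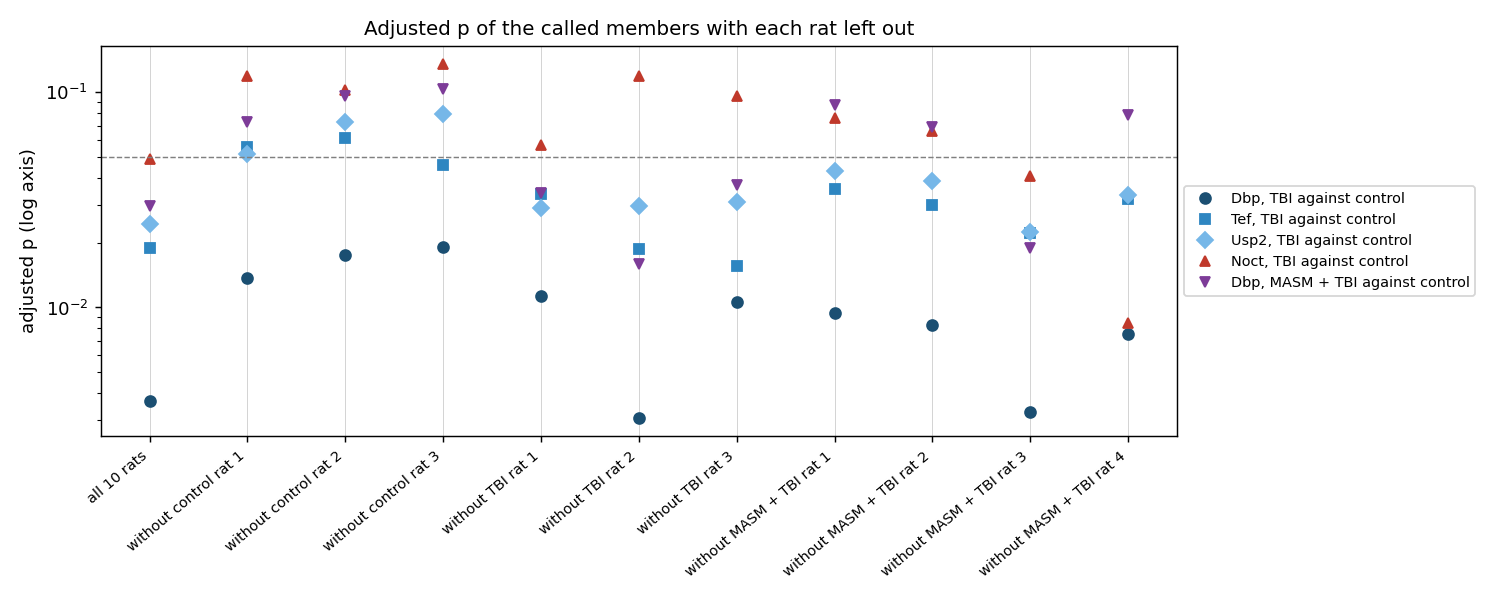
Adjusted p (log y axis) of the 5 calls made with all 10 rats, with each rat left out in turn (x axis), and the threshold of 0.05 as a dashed line. The difference of Dbp between TBI and control stays below the line in all 10 cases, from 0.00305 to 0.0192, and each of the other calls crosses it in at least 2.

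Of 16 core clock genes 13 had a probe, and between TBI and control 1 rose and 3 fell by the test. Bmal1, the activator at the head of the loop, rose by 2.95 (SE 0.51, adjusted p = 0.0173), a mean of 8.14 against 5.19. The loop's repressors Cry2 (-1.21, SE 0.17, adjusted p = 0.00804), Nr1d1 (-0.8, SE 0.16, adjusted p = 0.026) and Per2 (-0.79, SE 0.18, adjusted p = 0.0411) fell, all values being limma log2 differences. The remaining 9 did not pass, with a median over the 13 of -0.16. In MASM + TBI against control 0 of the 13 passed, with a median of -0.19. With dim probes left out 2 of them passed downward, Cry2 (-0.67, limma adjusted p = 0.0429) and Nr1d1 (-0.66, limma adjusted p = 0.0328). Against TBI, Per2 was higher in MASM + TBI by 1.33 (SE 0.17, limma adjusted p = 0.00955), and no other of the 13 passed. Npas2, a partner of BMAL1 akin to CLOCK, stood at -1.77 (SE 0.37, adjusted p = 0.0634) and Bmal1 at -1.65 (SE 0.48, adjusted p = 0.14) in that comparison. Npas2 passed with 75th percentile scaling (-1.83, limma adjusted p = 0.0384) and with dim probes left out (-1.77, limma adjusted p = 0.0375).

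Genes that carry a D-box or are known to need PAR bZIP factors were measured for 10 of 11. Between TBI and control 3 of them fell and none rose, with a median of -0.39. They were Nr1i3, the receptor CAR that senses foreign compounds (-0.98, SE 0.21, adjusted p = 0.0327), Cyp2b1, an oxidase of drugs under that receptor (-0.76, SE 0.18, adjusted p = 0.0491), and Abcb1a, a drug efflux pump (-1.08, SE 0.2, adjusted p = 0.0208). Abcb1a was well above background on 9 of 10 arrays, and in MASM + TBI it was higher than in control by 1.01 (SE 0.18, adjusted p = 0.0286) and higher than in TBI by 2.09 (SE 0.18, adjusted p = 0.00326). Thus Abcb1a moved the opposite way to Dbp in MASM + TBI against control. Nr1i3 and Cyp2b1 did not pass between MASM + TBI and TBI (0.69 and 0.57, adjusted p 0.133 and 0.148), and with 75th percentile scaling both passed (0.69 and 0.65, adjusted p 0.0489 and 0.0486). The other 7 did not pass between TBI and control. Their differences ran from -0.86 for Por, the electron donor of cytochromes P450 (adjusted p = 0.0882), through Ppara at -0.61, Alb at -0.16, Pdxk at 0.19, Alas1 at 0.47 and Cyp7a1 at 0.61 to 0.64 for Fgf21, a liver hormone (adjusted p = 0.445), all by limma on the log2 scale.

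**Figure D3:**
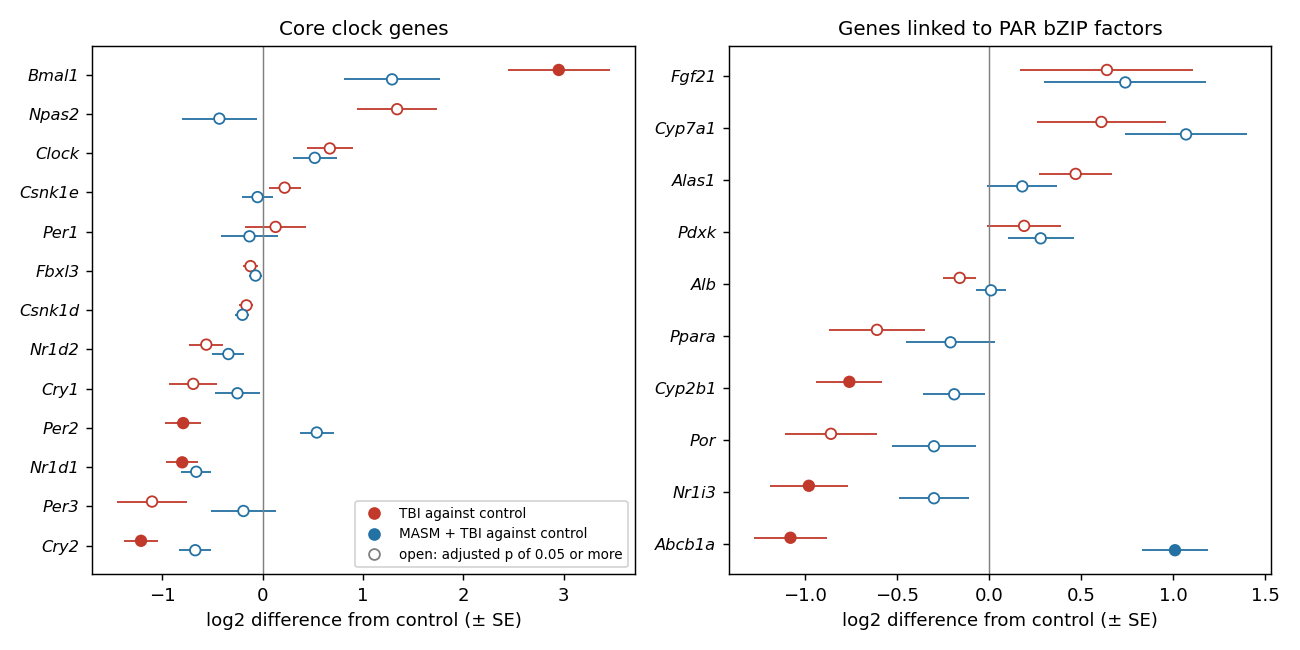
Log2 difference from control (x axis, ± SE) of core clock genes and of genes linked to PAR bZIP factors (y axis) in TBI and in MASM + TBI, with filled points for an adjusted p under 0.05. Bmal1 stands at 2.95 and Cry2 at -1.21 in TBI, and Abcb1a stands at -1.08 in TBI and 1.01 in MASM + TBI.

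Beside Nampt, 11 of 14 genes of NAD synthesis and use had a probe, and by limma none passed in any comparison, with a median of 0.01 for TBI against control, -0.01 for MASM + TBI against control and -0.12 for MASM + TBI against TBI. At an unadjusted p under 0.05 there were 4 up in TBI against control, where 23.5% of all probes passed (10.6% up and 12.9% down), 2 up and 2 down in MASM + TBI against control, where 17% passed (8.48% in each direction), and 1 down in MASM + TBI against TBI, where 17% passed. Scaled to the 75th percentile, 2 passed upward in TBI against control and 1 downward in MASM + TBI against TBI. Naprt, which makes NAD from nicotinic acid, stood at 0.44 (SE 0.13, adjusted p = 0.0892) and Nmnat2 at 0.72 (SE 0.22, adjusted p = 0.0954) in TBI against control, where the 11 ran from -0.28 for Parp2 to 0.72. Of the 8 other bZIP factors of the liver, Atf4, a factor of the stress response, rose in TBI against control (0.59, SE 0.14, adjusted p = 0.0477), and the others did not pass there, with a median of 0.49 over the 8.

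Livers can hold blood and immune cells beside hepatocytes, and their markers were read beside the results. Of 7 T cell markers 2, Cd3e and Cd3g, passed the test as lower in both irradiated groups than in control, and Cd3d and Cd8a stood lower without passing it (-0.78 and -0.9 in TBI, -0.65 and -1.76 in MASM + TBI, adjusted p 0.0894 to 0.361). Cd3e was itself 1 of the 2 T cell markers well above background on no array, and with dim probes left out 1 of 5 passed between TBI and control. In that setting 2 of 5 passed between MASM + TBI and control, with Cd8a among them (-1.76, limma adjusted p = 0.0474). Cd4 (0.71, adjusted p = 0.285), Lck (0.55, adjusted p = 0.349) and Cd5 (0.3, adjusted p = 0.55) differed in the other direction between TBI and control without passing, and the median over the 7 was -0.78. The 7 had a list mean of 4.91 to 5.4 in control rats, 3.94 to 4.71 in TBI rats and 3.88 to 4.33 in MASM + TBI rats. Of 4 B cell markers measured 1 was lower in both irradiated groups, with list means of 3.38 to 3.9, 2.35 to 2.67 and 2.35 to 3.07. The 6 natural killer cell markers, the 6 neutrophil markers and the 5 endothelial markers had 0 genes past the test in every comparison, as had the 5 Kupffer cell markers. With 75th percentile scaling the natural killer cell marker Ncr1 passed downward in MASM + TBI against TBI (-1.52, adjusted p = 0.0399) and the endothelial marker Lyve1 upward in TBI against control (0.59, adjusted p = 0.0367). All 6 natural killer cell markers stood lower in MASM + TBI than in control, with a median of -1.1 and 3 of 6 at an unadjusted p under 0.05. Gzmb (-1.91, adjusted p = 0.127), Nkg7 (-1.58, adjusted p = 0.0975) and Prf1 (-1.27, adjusted p = 0.206) differed by the most. Their list mean ran from 5.53 to 6.71 in control, 5.05 to 6.61 in TBI and 4.79 to 5.6 in MASM + TBI. Kupffer cell list means ran from 11.07 to 11.76 in control, 11.4 to 12.04 in TBI and 11.04 to 11.42 in MASM + TBI. Of 5 erythroid markers, Ahsp was lower in MASM + TBI than in control (-1.39, SE 0.28, limma adjusted p = 0.0385). Hbb (-1.29) and Alas2 (-1.56) also stood lower there, and Slc4a1 (0.98) and Epor (0.62) higher, without passing. In TBI against control none of the 5 passed, with Ahsp at -1.06 (limma adjusted p = 0.0783) and the others on the same sides. Ahsp passed there with 75th percentile scaling (limma adjusted p = 0.0402) and with dim probes left out (limma adjusted p = 0.0493). The part of these cells in the values of the 7 genes was not tested.

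Among 8438 genes well above background on all arrays, the 3 whose pattern over the 10 arrays was most like that of Dbp were Hsd17b2, Ing1 and Dusp13b, with Pearson r of 0.977, 0.976 and 0.969. Hsd17b2, which inactivates sex steroids, had a mean log2 signal of 16.81 in control, 15.37 in TBI and 15.86 in MASM + TBI. With the group means removed r was 0.782, 0.762 and 0.733, so that part of the likeness is the difference between groups. The 3 most like Noct were Btg2, a growth-arrest gene, Slc38a2, an amino acid carrier, and Insig1, a brake on cholesterol synthesis, with r of 0.973, 0.962 and 0.96, or 0.906, 0.939 and 0.9 within groups. In MASM + TBI rat 4 they stood at 1.16, -0.14 and 0.31 relative to the control mean on the log2 scale, and in rats 1 to 3 at 2.97 to 3.3, 1.75 to 2.28 and 1.5 to 2.03. The rat in which Noct was lowest was thus also lowest of its group in each of the 3. These are correlations over 10 arrays that share slides and groups, chosen as the highest of many, and are given without a test.

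**Figure D4:**
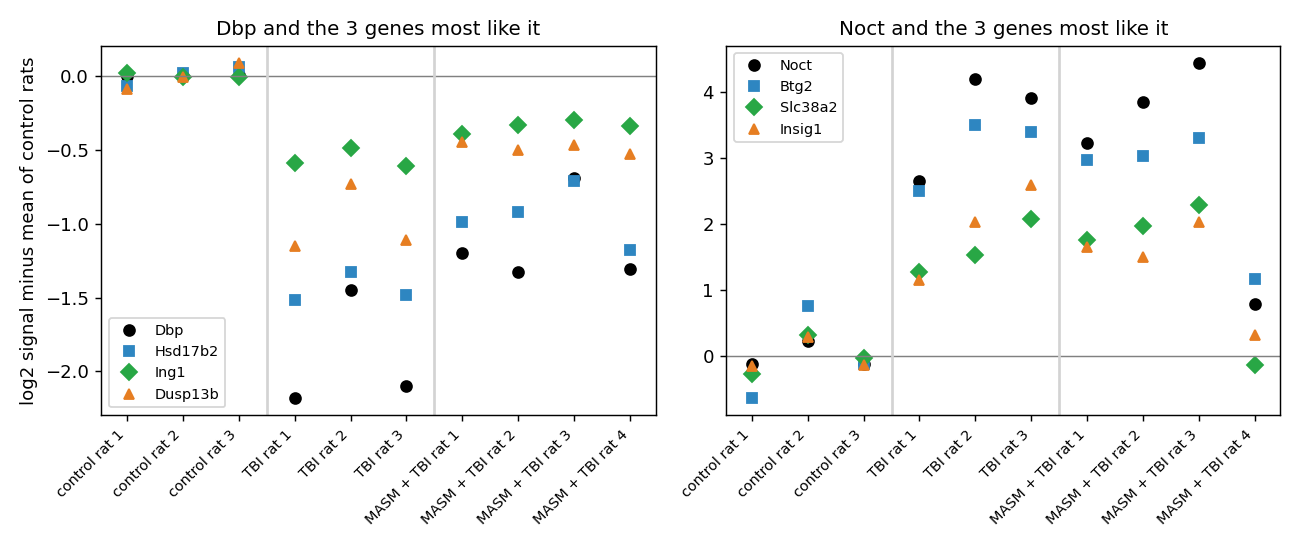
Log2 signal minus the mean of control rats (y axis) in each of the 10 rats (x axis) for Dbp and for Noct, each with the 3 genes most like it. The genes shown with Dbp are lower in every irradiated rat than in any control, and those shown with Noct are higher in TBI rats and come close to the control level in MASM + TBI rat 4 for Slc38a2 (-0.14) and Insig1 (0.31).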

How the data were processed

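Liver RNA of 10 rats was labelled with Cy3 and hybridised to 1 array each. The spot intensities the authors deposited were computed by Feature Extraction (version 10.7 per the labels) and are linear, background-subtracted and not normalized between arrays. Of 45018 spots, 1639 control spots and 76 to 112 outlier spots per array were left out, and 0 spots were saturated. After a log2 transformation the values were quantile normalized, and repeated spots of a probe were averaged. Of 41012 probes, 40945 had a value on every array and 16968 obtained a symbol by accession from RefSeq (GRCr8). A gene was represented by its brightest probe, with other probes beside it.

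A model with 3 group means was fitted to all 10 arrays with limma 3.58.1 in R 4.3.3, with the Benjamini-Hochberg adjustment over 40945 probes. Intervals are 95% intervals of the fit, and the number of arrays limits their precision. In simulated data for TBI against control, 47% of probes changed by 1 and 82% of those changed by 2 on the log2 scale were recovered, with 11 false calls among 40945 probes. Where a probe was not well above background on any array of a group, the fold is a bound against the lowest signal well above background. Named are the 9 genes, members of the lists past the test or on which a result turns, and the 3 genes most like Dbp and Noct. Genes of the lists that did not pass and are named were chosen after their values were seen. The 9 genes and the lists were chosen with earlier results of these data known. Of the genes induced by feeding, 1 is not reported here.

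Alternatives were 75th percentile scaling, a normexp correction (offset 50, on median pixel signals, since the files hold no mean), the deposited value table, leaving out dim probes, a robust prior with a trend, a fit to only the 2 groups compared, other probes of a gene, the slide or the replicate number as a block, leaving out each rat, and the methods' t-test. Rats are separate animals. Plots used matplotlib 3.10.9.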

Additional observations from a re-analysis of the deposited data

How the results depend on the processing

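Dbp fell in TBI against control in every alternative (-2.14 to -1.78) and passed the test in all but the methods' t-test (adjusted p = 0.257), and with each rat left out its adjusted p stayed between 0.00305 and 0.0192. The count of the 7 genes passing in that comparison was 4, or 2 (Dbp and Noct) with only the 2 groups compared and 0 by the methods' t-test after the same adjustment, and 1 to 4 with each rat left out, with 1 (Dbp) without control rat 1 or control rat 2 and 2 (Dbp and Tef) without control rat 3. For MASM + TBI against control the count was 1, or 0 with 75th percentile scaling or the methods' t-test, 2 (Dbp and Noct) with dim probes left out, and 0 to 1 with each rat left out. For MASM + TBI against TBI it was 0, or 2 (Dbp and Usp2) with 75th percentile scaling, and 0 with each rat left out. Over the 7 lists of clock, PAR bZIP, NAD, bZIP, glucocorticoid, fasting and feeding genes, 75th percentile scaling gave 7 calls instead of 3 between MASM + TBI and TBI and 18 (10 up and 8 down) instead of 12 (4 up and 8 down) between TBI and control, and leaving out dim probes 5 instead of 2 between MASM + TBI and control. Noct lost its call between TBI and control with the normexp correction (adjusted p = 0.0623). The brighter probe of Nampt passed between TBI and control with the slide as a random block (-1.12, adjusted p = 0.0412), but the correlation within slides was estimated as -0.133, which narrows the error of a difference between slides, and TBI had a slide of its own.

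The replicate numbers were not taken as pairs in the main fit. The 9 correlations of same-numbered deviations ran from -0.125 to 0.169 and 1 exceeded 0.1. They were not set beside those of differently numbered rats, so they do not settle whether the rats were paired. With the replicate block 3 genes passed for TBI against control (Dbp, Noct and Usp2), 1 for MASM + TBI against control (Noct) and 0 for MASM + TBI against TBI, and over all probes 1053, 298 and 22 passed.

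Small differences changed sign. Between MASM + TBI and TBI, the replicate block as well as leaving out MASM + TBI rat 4 gave 0.25 for Noct and 0.00083 for Bhlhe40. With each rat left out in turn Noct ranged from -0.99 to 0.25 and Bhlhe40 from -0.36 to 0.16 (without TBI rat 3) in that comparison, and Nampt from -0.23 (without TBI rat 1) to 0.44, with -0.08 when MASM + TBI rat 3 was dropped. Nfil3 in MASM + TBI against control ranged from -0.08 to 0.51, and was negative when control rat 1 (-0.04) was dropped, or MASM + TBI rat 2 (-0.08) or 3 (-0.03). The cause was not tested.

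Over all probes, 2305, 1225 and 666 passed in TBI against control, MASM + TBI against control and MASM + TBI against TBI. With each rat left out these ranged from 969 (control rat 3) to 2787 (TBI rat 3), from 490 (control rat 2) to 1488 (TBI rat 3) and from 250 (MASM + TBI rat 1) to 1268 (TBI rat 3). Counts under the main ones by more than 1.5 times also came without control rat 1 (1295), control rat 2 (1102) or TBI rat 2 (1516) in the first comparison, without control rat 3 (491), MASM + TBI rat 1 (525), 2 (799) or 4 (612) in the next, and without MASM + TBI rat 2 (283) or 4 (326) in the last, where TBI rat 1 gave a higher one (1220). With 75th percentile scaling these were 7476 (1812 up and 5664 down, instead of 998 and 1307), 815 and 5479 (4516 up and 963 down, instead of 373 and 293). With only the 2 groups compared, 972 and 263 passed for the comparisons with TBI, by the methods' t-test after Benjamini-Hochberg adjustment, which the study did not apply, 10, 40 and 4, and with the slide as a random block 6742, 2852 and 2048. With the slide as a fixed block MASM + TBI against control rests on 1 rat against the 3 controls of its slide, assumed to vary like the others, and 536 probes passed (386 up and 150 down, instead of 516 and 709).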

Other observations

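Genes that answer to glucocorticoids, which also set the clock of the liver, moved in both directions. Of 7 measured, 2 rose and 2 fell between TBI and control by limma, with a median log2 difference of 0.68. Sgk1, a kinase of salt handling, rose by 1.57 (SE 0.28, adjusted p = 0.0188) and Tsc22d3, an anti-inflammatory mediator, by 0.68 (SE 0.14, adjusted p = 0.0343). Zbtb16, a transcription factor, differed by -2.4 (SE 0.43, adjusted p = 0.019) and Fkbp5, a chaperone partner of the glucocorticoid receptor, by -0.82 (SE 0.18, adjusted p = 0.037). Zbtb16 was higher in MASM + TBI than in TBI by 2.12 (SE 0.4, limma adjusted p = 0.0435), with a mean of 6.78 against 4.66 and 7.05 in control.

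Feeding also sets the liver clock. Of 7 genes induced by fasting, 0 passed the limma test in any comparison, with medians of 0.18, -0.24 and -0.61 for TBI against control, MASM + TBI against control and MASM + TBI against TBI. At an unadjusted p under 0.05 there were 2 up and 2 down, 1 up and 2 down, and 1 down, where 23.5%, 17% and 17% of all probes passed. Pdk4, a kinase that spares glucose, passed upward in TBI against control with 75th percentile scaling (2.04, adjusted p = 0.0379) as well as with dim probes left out (2.03, adjusted p = 0.0473). Of 5 measured genes induced by feeding, Scd, a desaturase of fat synthesis, was lower in MASM + TBI than in control (-3.67, SE 0.71, adjusted p = 0.0355) and stood at -2.46 (SE 0.76, adjusted p = 0.102) in TBI against control by limma. Elovl6 (0.58), Fasn (0.45) and Acaca (0.1) stood higher in MASM + TBI than in control without passing. The median over the 5 was 0.45 there and -0.06 in TBI against control.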
